A study of Rattus norvegicus with 21 samples.

Results

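The genes Lox, Lrat, Col1a1, Col1a2, Col3a1, Dcn, Des, Acta2 and Timp1, 9 genes of hepatic stellate cells and of the extracellular matrix, were followed in rat liver. They were taken as all probe sets whose annotated gene symbol was exactly one of these names, which gave 12 of the 31099 probe sets on the array. Lox, Col1a1 and Col1a2 had 2 probe sets each and the other genes 1. The livers came from male rats, with 1 array per animal and 3 animals in each of 7 groups. In the first study, Sprague-Dawley rats received piperonyl butoxide (PBO, an insecticide synergist) by mouth for 7 days at 500, 1000 or 1500 mg/kg, and the PBO 0 mg/kg rats received 0.5% methyl cellulose. In the second study, Fischer344 rats ate a diet with 2% or 5% dammar resin (DAM, a plant resin) for 28 days, equivalent to 800 and 2000 mg/kg, and the DAM 0 mg/kg rats ate the basal diet. The PBO livers were stored in RNAlater, whereas liquid nitrogen was used for the DAM livers, so compound, strain, route, duration and storage cannot be told apart between the studies.

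Stellate cells lie between hepatocytes and the sinusoidal endothelium and store most of the vitamin A of the liver as retinyl esters, which the enzyme encoded by Lrat makes. When the liver is injured they can lose this store, take on contractile proteins such as the smooth muscle actin encoded by Acta2, and become the main source of the fibrillar collagens encoded by Col1a1, Col1a2 and Col3a1. Lox encodes lysyl oxidase, which crosslinks collagen and elastin, and Timp1 encodes an inhibitor of the proteases that break matrix down. In whole liver RNA, fewer cells of a type and less RNA per cell cannot be told apart.

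Promoters of 5 of the 9 genes were in the RefSeq-derived table (build GRCr8), each running from 250 bases before to 50 bases after the start of the gene. Those of Lrat and Col1a2 are shown because both genes had a probe set that was lower at DAM 2000 mg/kg. Capitals mark every match, on either strand, to the TATA box letters TATAA, the CAAT box letters CCAAT and the GC box letters GGGCGG, and no 2 matches overlapped. A match on the minus strand reads ATTGG or CCGCCC here.
Lrat promoter, chr2:170571163-170571462, minus strand: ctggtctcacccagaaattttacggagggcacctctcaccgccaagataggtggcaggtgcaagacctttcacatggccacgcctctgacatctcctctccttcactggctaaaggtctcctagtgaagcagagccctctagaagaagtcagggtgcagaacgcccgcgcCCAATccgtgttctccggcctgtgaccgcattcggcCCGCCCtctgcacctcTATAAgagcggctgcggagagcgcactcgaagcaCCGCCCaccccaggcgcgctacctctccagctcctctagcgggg
Col1a2 promoter, chr4:33518307-33518606, plus strand: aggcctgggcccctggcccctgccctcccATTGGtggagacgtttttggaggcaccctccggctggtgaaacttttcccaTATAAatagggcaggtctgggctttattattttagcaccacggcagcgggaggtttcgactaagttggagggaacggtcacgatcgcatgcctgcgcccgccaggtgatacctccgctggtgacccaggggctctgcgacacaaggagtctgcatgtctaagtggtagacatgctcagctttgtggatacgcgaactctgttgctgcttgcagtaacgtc
The Lrat promoter held TATAA with its first base at −28, CCAAT at −80, and GGGCGG on the minus strand at −44 and 7. The Col1a2 promoter held TATAA at −170 and CCAAT on the minus strand at −221, and no GGGCGG. Of all 33469 promoters in the table, 26.2% held TATAA, 37.5% CCAAT and 33.1% GGGCGG. Among the other 3 matched genes, Acta2 held TATAA at −40, Des held GGGCGG 3 times and Timp1 held it once. These matches describe letters only.

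All arrays had been scaled alike, with trimmed mean signals of 500.2 to 500.3. PBO 1500 replicate 3 stood apart from its group. Its root mean square deviation from the group mean was 0.495 log2 units, against 0.276 to 0.368 for the other PBO arrays. Results that rest on it are given with and without it. Changes below are differences of group means on the log2(signal + 16) scale ± the standard error of a limma fit with 3 animals per group, which understates the change of low signals. A gene is said to have risen or fallen where its p-value, adjusted with the Benjamini-Hochberg method over the 18625 probe sets tested, was under 0.05.

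Lox was the member with the widest range. Its probe set 1368171_at gave signals of 2038, 665 and 5914 in PBO 0 livers, 254, 349 and 434 in PBO 500 livers, 88.4, 98.1 and 100.2 in PBO 1000 livers and 213, 64.7 and 140.2 in PBO 1500 livers. Every dosed liver was below the lowest undosed liver, and the undosed livers were far apart. At PBO 1000 mg/kg Lox fell by 4.18 ± 0.59 (adjusted p = 0.00196), and at PBO 1500 mg/kg by 3.83 ± 0.59 (adjusted p = 0.000837). At PBO 500 mg/kg the change was −2.51 ± 0.59 with an adjusted p of 0.103. That comparison passed the threshold without PBO 0 replicate 2 (change −3.30, adjusted p = 0.00805) and without PBO 1500 replicate 3 (adjusted p = 0.0447). Over the 4 doses Lox fell by 1.32 ± 0.24 per 500 mg/kg (adjusted p = 0.00207), although the mean at 1500 mg/kg, 139 ± 74.1, was above that at 1000 mg/kg, 95.6 ± 6.31 (SD, n = 3 each), with overlapping animals.

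The other Lox probe set, 1368172_a_at, gave the same order of animals among the undosed livers. Its signals were 397, 198 and 1184 in PBO 0 livers, 89.0, 113 and 111 in PBO 500 livers, 19.5, 34.7 and 43.9 in PBO 1000 livers and 111, 43.5 and 75.1 in PBO 1500 livers. Again no dosed liver reached the undosed ones. This probe set fell by 3.31 ± 0.51 at PBO 1000 mg/kg (adjusted p = 0.00352). At PBO 1500 mg/kg it fell by 2.42 ± 0.51 (adjusted p = 0.00576). Its trend of −0.86 ± 0.23 per 500 mg/kg (adjusted p = 0.0189) did not pass without PBO 0 replicate 1 or 3 (adjusted p = 0.0572 and 0.0624). At PBO 500 mg/kg it changed by −1.98 ± 0.51 (adjusted p = 0.144), and by −2.55 without PBO 0 replicate 2 (adjusted p = 0.0480).

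Lox was low throughout the DAM study. Probe set 1368171_at gave 68.2, 72.0 and 117 in DAM 0 livers, 76.1, 48.2 and 127 in DAM 800 livers and 63.3, 76.6 and 93.3 in DAM 2000 livers. The 3 groups overlapped. The changes were −0.07 ± 0.30 at DAM 800 mg/kg (95% interval −0.72 to 0.58) and −0.10 ± 0.30 at DAM 2000 mg/kg (95% interval −0.75 to 0.55, adjusted p = 0.874). The other probe set, with 22.3 to 53.7 over the 9 DAM livers, was below the filter on low signal in that study and was not tested. The effect of PBO 1500 mg/kg on 1368171_at was below that of DAM 2000 mg/kg by −3.73 ± 0.73 (95% interval −5.27 to −2.20, adjusted p = 0.00594), a difference that passed without each of the 12 arrays in turn. For 1368172_a_at the difference was −2.28 ± 0.61 (adjusted p = 0.0361), and it did not pass in 11 of 19 alternatives, with adjusted p up to 0.0804. These included using no filter on low signal (adjusted p = 0.0569). They also included leaving out PBO 1500 replicate 2, PBO 0 replicate 1 or 3, or any 1 of the DAM 2000 and DAM 0 livers. Mean signals were 2872 in PBO 0, 346 in PBO 500, 95.6 in PBO 1000 and 139 in PBO 1500 livers, and 85.6 in DAM 0, 83.9 in DAM 800 and 77.7 in DAM 2000 livers. In the order of these levels, the groups from PBO 1500 downward overlapped their neighbours. From the DAM 0 level, a fall as large as that in the PBO study could not show on the scale used.

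**Figure D1:**
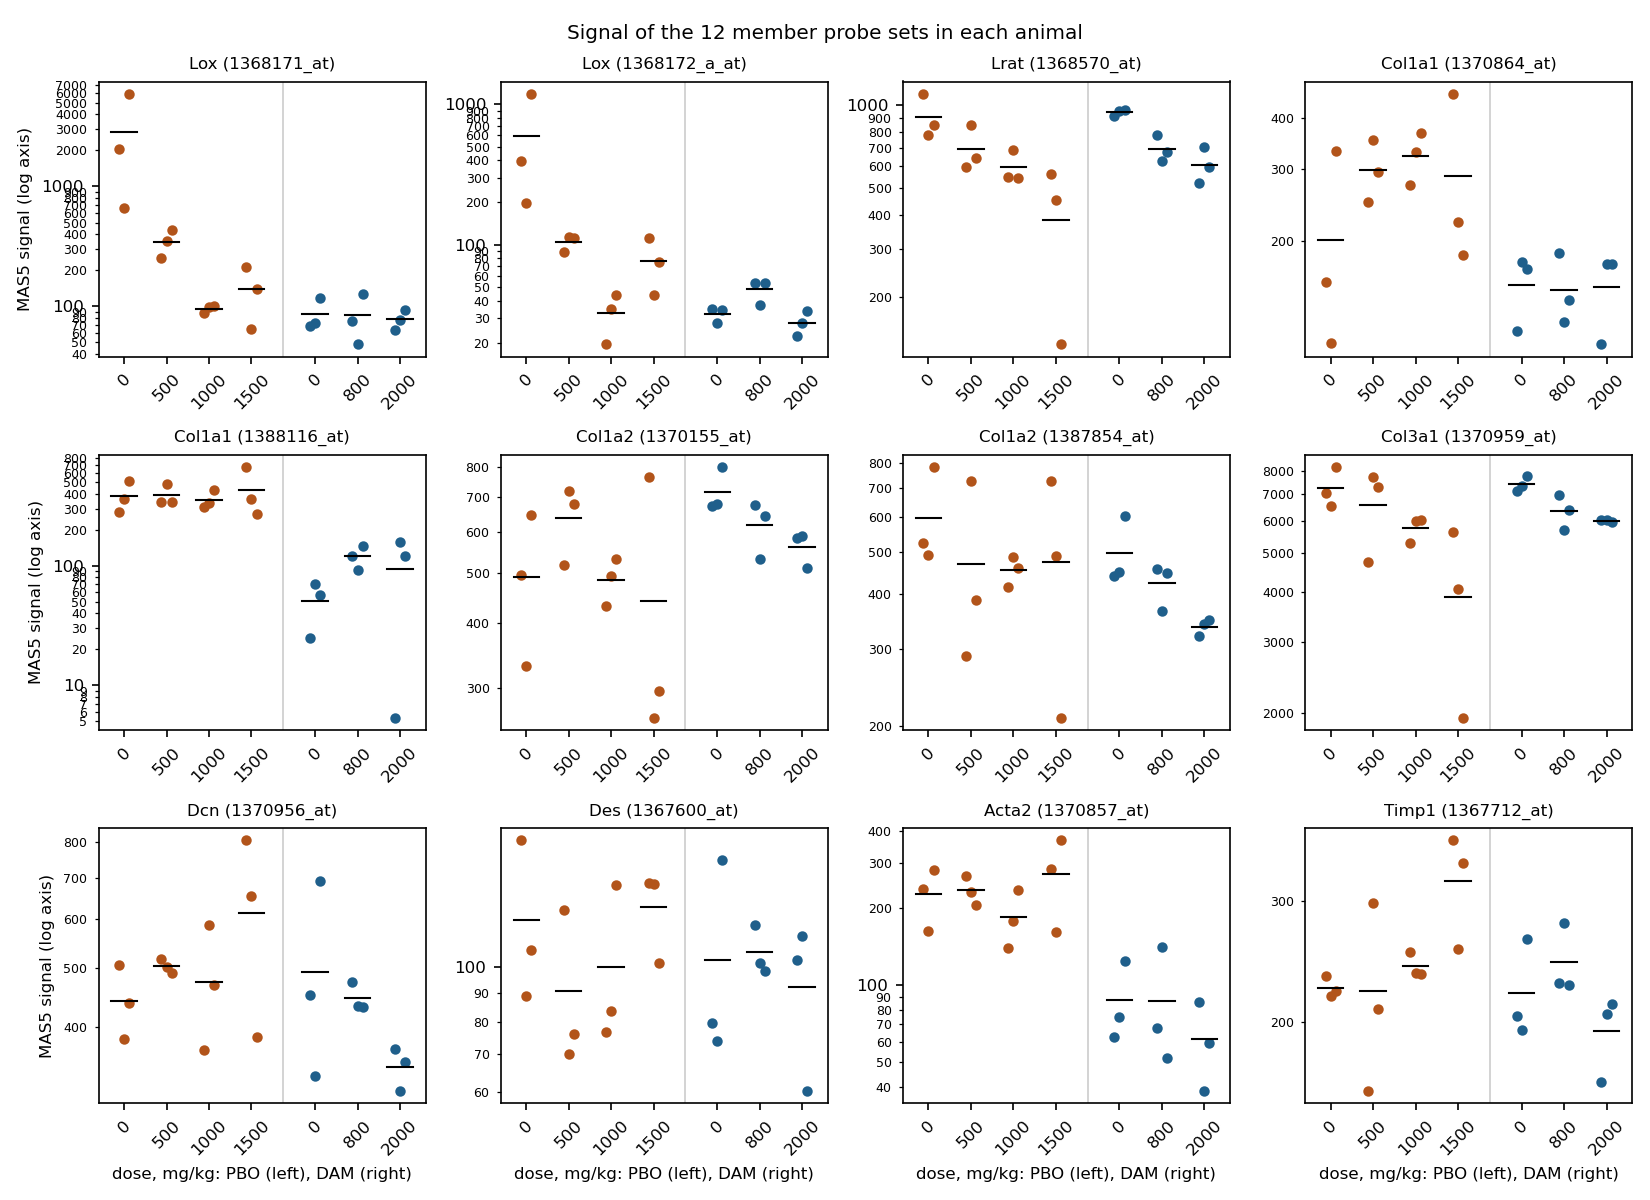
MAS5 signal (log axis) of the 12 member probe sets in each liver, by dose in mg/kg, with PBO groups left of the line and DAM groups right of it; points are animals and bars are group means (n = 3). The Lox probe sets of the PBO 0 livers reach 5914 and 1184, while Col1a1 1388116_at is lower in all DAM livers than in any PBO liver.

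Lrat, the enzyme that esterifies retinol for storage, fell at the highest dose of each compound. Its signals were 1099, 779.5 and 849 in PBO 0 livers, 595, 850.4 and 644 in PBO 500 livers, 549, 687 and 546 in PBO 1000 livers and 561, 454 and 135 in PBO 1500 livers. The PBO 1000 and PBO 1500 livers lay below all undosed livers, and PBO 1500 replicate 3 was the lowest. At PBO 1500 mg/kg Lrat fell by 1.41 ± 0.38 (adjusted p = 0.0222), and by 0.81 without PBO 1500 replicate 3 (adjusted p = 0.0104). The call was lost without PBO 0 replicate 1 (adjusted p = 0.0833) or replicate 3 (adjusted p = 0.0571), and in a fit of both groups alone (adjusted p = 0.105). The changes were −0.38 ± 0.38 at PBO 500 mg/kg (adjusted p = 0.819) and −0.59 ± 0.38 at PBO 1000 mg/kg (adjusted p = 0.491). Over the doses Lrat fell by 0.44 ± 0.12 per 500 mg/kg (adjusted p = 0.0177), a value that was −0.27 without PBO 1500 replicate 3 (adjusted p = 0.00455) and that did not pass without PBO 0 replicate 1 (adjusted p = 0.0527).

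Lrat signals in the DAM study were 914, 953 and 963 in DAM 0 livers, 778, 627 and 679 in DAM 800 livers and 523, 704 and 596 in DAM 2000 livers. Both dosed groups lay wholly below the basal diet group. Lrat fell by 0.63 ± 0.12 at DAM 2000 mg/kg (adjusted p = 0.00394), and the call held in all 15 alternatives, with changes of −0.74 to −0.52. At DAM 800 mg/kg the change was −0.44 ± 0.12 (adjusted p = 0.0637). It passed with a stricter filter on low signal (adjusted p = 0.0485) and in a fit of both groups alone (adjusted p = 0.0492). The effects of the highest doses differed by −0.78 ± 0.44 (95% interval −1.70 to 0.15, adjusted p = 0.359).

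The fibrillar collagens did not move as one. Col3a1, the chain of type III collagen, gave 7054, 6555 and 8166 in PBO 0 livers, 4741, 7711 and 7287 in PBO 500 livers, 5278, 6001 and 6035 in PBO 1000 livers and 5621, 4069 and 1949 in PBO 1500 livers. The PBO 1000 and PBO 1500 livers were all below the undosed livers, and PBO 1500 replicate 3 was again the lowest. Col3a1 fell by 1.02 ± 0.30 at PBO 1500 mg/kg (adjusted p = 0.0325) and by 0.59 without that replicate (adjusted p = 0.0485). The call did not pass without any 1 of the PBO 0 replicates (adjusted p = 0.0784, 0.0617 and 0.107 without replicates 1, 2 and 3). It was also lost in a fit of both groups alone (adjusted p = 0.111). The dose trend was −0.32 ± 0.09 per 500 mg/kg (adjusted p = 0.0308), and −0.19 without PBO 1500 replicate 3 (adjusted p = 0.0327). The trend did not pass without PBO 0 replicate 1 or 3, or PBO 1500 replicate 2 (adjusted p = 0.0519, 0.0763 and 0.0581).

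Col3a1 in the DAM study gave 7112, 7347 and 7786 in DAM 0 livers, 6965, 5707 and 6405 in DAM 800 livers and 6033, 6034 and 5975 in DAM 2000 livers. The DAM 2000 animals were nearly equal, and both dosed groups lay below the undosed one. Col3a1 fell by 0.30 ± 0.08 at DAM 2000 mg/kg (adjusted p = 0.0231). Scaling each array to its median, which shifted the changes of all probe sets by a median of 0.11, left a change of −0.19 (adjusted p = 0.278), and the call was also lost without DAM 2000 replicate 1, 2 or 3 (adjusted p = 0.0586, 0.0655 and 0.0607) or DAM 0 replicate 2 or 3 (adjusted p = 0.0501 and 0.0847). At DAM 800 mg/kg the change was −0.22 ± 0.08 (adjusted p = 0.153).

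Col1a2 and Col1a1 encode the 2 chains of type I collagen, the most abundant collagen of scar tissue. The Col1a2 probe set 1387854_at gave 439.6, 449 and 605 in DAM 0 livers, 458, 366 and 447 in DAM 800 livers and 320.3, 342 and 349 in DAM 2000 livers, so the DAM 2000 livers did not overlap the undosed ones. It fell by 0.53 ± 0.14 at DAM 2000 mg/kg (adjusted p = 0.0269). Median scaling left −0.42 (adjusted p = 0.0779), and the call was lost without DAM 2000 replicate 1, 2 or 3 (adjusted p = 0.0861, 0.0688 and 0.0524) or DAM 0 replicate 3 (adjusted p = 0.0975). The other Col1a2 probe set, 1370155_at, gave 585, 589 and 511 in DAM 2000 livers, against 673, 679 and 799 in DAM 0 livers, with no overlap. Its change of −0.34 ± 0.12 had an adjusted p of 0.0822.

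In the PBO study Col1a2 spread widely at the highest dose. Probe set 1387854_at gave 726, 489.8 and 209 in PBO 1500 livers, against 525, 492 and 782 in PBO 0 livers, and 1370155_at gave 764, 263 and 297, against 495, 331 and 647. The groups overlapped for both. The changes were −0.46 ± 0.39 (adjusted p = 0.469) and −0.26 ± 0.34 (adjusted p = 0.645). Without PBO 1500 replicate 3 the first was 0.02 (adjusted p = 0.973).

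Col1a1 did not pass in any comparison. Probe set 1370864_at gave 158, 112 and 332 in PBO 0 livers, 249, 353 and 295 in PBO 500 livers, 274, 330.1 and 369 in PBO 1000 livers and 459.5, 223 and 184 in PBO 1500 livers. The dosed and undosed PBO livers overlapped at each dose, with a change of 0.52 ± 0.36 at PBO 1500 mg/kg (adjusted p = 0.364). In the DAM study this probe set lay between 111 and 186 in every liver, with a change of −0.02 ± 0.22 at DAM 2000 mg/kg (95% interval −0.50 to 0.45). The second Col1a1 probe set, 1388116_at, gave 24.6, 70.1 and 57.2 in DAM 0 livers, 121, 92.3 and 146 in DAM 800 livers and 5.35, 157 and 121 in DAM 2000 livers. One DAM 2000 liver was thus far below all the others. The change at DAM 2000 mg/kg was 0.33 ± 0.61 (adjusted p = 0.785), and 1.28 without DAM 2000 replicate 1 (adjusted p = 0.0314). At DAM 800 mg/kg it was 1.08 ± 0.61 (adjusted p = 0.429), with no overlap of the animals.

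Dcn encodes decorin, a small proteoglycan that binds collagen fibrils and that stellate cells express. It gave 804, 652 and 386 in PBO 1500 livers, against 504, 383 and 438 in PBO 0 livers. PBO 1500 replicate 3 was the only animal of its group inside the range of the undosed livers. The change was 0.41 ± 0.24 (adjusted p = 0.270), and 0.70 without that replicate (adjusted p = 0.0216). Dcn in the DAM study gave 369, 315 and 351 in DAM 2000 livers, against 451, 333 and 690.3 in DAM 0 livers, with a change of −0.43 ± 0.20 (adjusted p = 0.185) and of −0.67 without DAM 0 replicate 2 (adjusted p = 0.0270). The difference between the 2 effects was 0.84 ± 0.34 (95% interval 0.14 to 1.55, adjusted p = 0.167), and it passed without PBO 1500 replicate 3 (1.14, adjusted p = 0.0248).

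The contractile and cytoskeletal members did not pass. Acta2 gave 284, 161 and 367 in PBO 1500 livers, against 237, 162 and 282 in PBO 0 livers, a change of 0.20 ± 0.29 (adjusted p = 0.694). Its DAM study signals were 86.0, 38.6 and 59.3 in DAM 2000 livers, against 62.7, 75.2 and 123 in DAM 0 livers, a change of −0.42 ± 0.35 (adjusted p = 0.485). Those groups overlapped. Des encodes desmin, an intermediate filament of stellate and muscle cells, and gave 141, 140.7 and 102 in PBO 1500 livers, against 168, 88.7 and 107 in PBO 0 livers. Its change was 0.10 ± 0.32 there (95% interval −0.59 to 0.78), and −0.11 ± 0.28 at DAM 2000 mg/kg (95% interval −0.71 to 0.49).

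Timp1, the protease inhibitor, gave 234, 218 and 222 in PBO 0 livers, 159, 298 and 209 in PBO 500 livers, 253, 236 and 235 in PBO 1000 livers and 368, 256 and 341 in PBO 1500 livers. All PBO 1500 livers were above all undosed livers. The change of 0.47 ± 0.21 at PBO 1500 mg/kg (95% interval 0.01 to 0.94) had an adjusted p of 0.152. In DAM 2000 livers Timp1 gave 164, 206 and 212, against 204, 194 and 264 in DAM 0 livers, which overlapped, with a change of −0.17 ± 0.16 (adjusted p = 0.554).

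**Figure D2:**
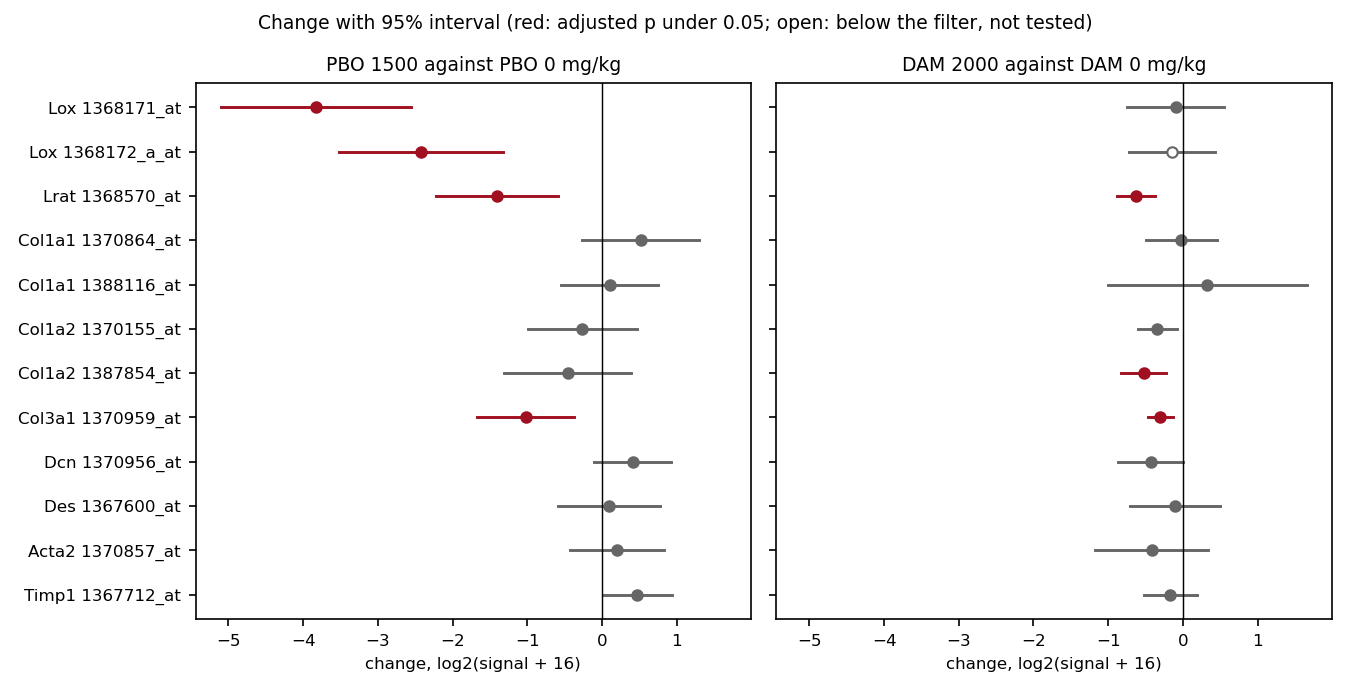
Change on the log2(signal + 16) scale with its 95% interval for the 12 member probe sets, at PBO 1500 against PBO 0 mg/kg and at DAM 2000 against DAM 0 mg/kg (limma, n = 3 per group). Red marks an adjusted p under 0.05, and the open point the Lox probe set below the filter in the DAM study; Lrat and Col3a1 are red in both panels.

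Counted over the probe sets of the 9 genes, 0 of 12 passed at PBO 500 mg/kg, where 0.478% of all probe sets passed, 0.349% higher and 0.129% lower, and 1858 had an unadjusted p under 0.05. At PBO 1000 mg/kg the 2 Lox probe sets were lower, against 3.12% of all probe sets called, 1.88% higher and 1.23% lower. At PBO 1500 mg/kg 4 of 12 were lower, those of Lox, Lrat and Col3a1, against 17.3% of all called, 8.08% higher and 9.26% lower. At DAM 800 mg/kg 0 of 11 tested passed, against 3.79% of all, 2.16% higher and 1.62% lower, where 2977 probe sets had an unadjusted p under 0.05. Those of Lrat and Col3a1 and 1 of Col1a2, 3 of 11, were lower at DAM 2000 mg/kg, against 12.3% of all called, 6.22% higher and 6.11% lower. For the PBO dose trend 4 of 12 were lower, against 16.8% of all called, 7.92% higher and 8.84% lower. For the difference of the highest-dose effects 2 of 12 were lower, against 4.91% of all called, 2.14% higher and 2.77% lower. No member probe set passed as higher in these 7 comparisons. The median change over the members tested was −0.08 at PBO 1500 mg/kg and −0.30 at DAM 2000 mg/kg, against −0.08 and −0.04 over all probe sets.

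Groups that did not overlap were found for 2 and 6 of the 12 probe sets at PBO 500 and 1000 mg/kg, against 20.1% and 27.5% of all probe sets. For PBO 1500 mg/kg there were 5 of 12, against 33.3%. In DAM livers there were 4 of 12 at 800 mg/kg, the untested Lox probe set included, against 20.9%, and 4 of 12 at 2000 mg/kg, against 30.8%.

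Across the studies, Col1a1 1388116_at had lower signals in all 9 DAM livers, 5.35 to 157, than in all 12 PBO livers, 269 to 666. Acta2 gave 38.6 to 140.0 in DAM livers and 139.7 to 367 in PBO livers, and overlapped in 1 animal of each study. Lrat, Col3a1 and Des overlapped between the undosed groups of both studies. These levels were not tested, since strain and storage differ.

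Beside the 9 members, 12 lists of matrix and stellate cell genes were followed, of which only some hold members. Without the members these lists held 213 genes, and the counts in this paragraph leave the members out. Among those tested, 7 were higher and 31 lower at PBO 1500 mg/kg, or 24.8% of 153, with a median change of −0.24. Without PBO 1500 replicate 3 there were 10 higher and 28 lower, or 25%. The counts at DAM 2000 mg/kg were 5 higher and 13 lower, or 12.3% of 146, with a median change of −0.19. Both shares stand beside the 17.3% and 12.3% of all probe sets called. In the lists each gene counts once, by its tested probe set with the highest mean log2 signal. The shares of all count every probe set tested, so the 2 kinds of share are not fully alike. The counts were 1 higher and 0 lower at PBO 500 mg/kg, or 0.654% of 153, against 0.478% of all probe sets. At PBO 1000 mg/kg they were 2 and 6, or 5.23% of 153, against 3.12%. At DAM 800 mg/kg they were 2 and 4, or 4.11% of 146, against 3.79%. In the fit without PBO 1500 replicate 3 they were 6 and 16 at PBO 1000 mg/kg, or 14.5% of 152, against 7.77% of all probe sets in that fit. At PBO 500 mg/kg they were 2 and 4 in that fit, or 3.95%, against 1.99% of all.

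By number of genes lower at PBO 1500 mg/kg, markers of quiescent stellate cells, the vitamin A-storing state, led the lists, but not by share. Of 16 genes tested, 7 were lower and 1 higher, with a median change of −0.73. Of all probe sets 9.26% were lower and 8.08% higher. Shares lower were larger in erythroid markers, 3 of 4, T and NK cell markers, 2 of 4, and small leucine-rich proteoglycans, 3 of 6. The share of hepatocyte markers, 4 of 9, was slightly larger too. In this order the medians of these lists were −1.63, −1.37, −1.11 and −0.30, and that of macrophage markers was −1.18. Lhx2, a transcription factor that keeps mouse stellate cells quiescent, gave 104, 57.6 and 53.0 in PBO 1500 livers, against 219, 212 and 224 in PBO 0 livers, and fell by 1.47 ± 0.25 (adjusted p = 0.00164). Vipr1, a receptor of vasoactive intestinal peptide, gave 1032, 867 and 565, against 2024, 1981 and 1887, and fell by 1.28 ± 0.18 (adjusted p = 0.000532). Both genes separated the groups without overlap. Colec11, a secreted collectin, fell by 1.07 ± 0.16 (adjusted p = 0.000658), and gave 2052, 1799.7 and 1247 against 3646, 3477 and 3383. Angptl6, Reln and Bmp5, which encode an angiopoietin-like protein, the matrix glycoprotein reelin and a bone morphogenetic protein, fell by 0.98, 0.94 and 0.93 (adjusted p = 0.00250, 0.00880 and 0.00665). Lrat, described above, was the seventh, and the other 6 passed without each of the 6 arrays in turn.

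The 1 gene of this list that rose at PBO 1500 mg/kg was Rgs5, a regulator of G protein signalling that marks pericytes. It gave 601, 385 and 822 in PBO 1500 livers, against 202, 161 and 168 in PBO 0 livers, and rose by 1.62 ± 0.26 (adjusted p = 0.00104). Without PBO 1500 replicate 3 the list held 7 lower and 2 higher, with a median of −0.71. Lrat and the PDGF receptor gene Pdgfrb, 2 of 18, were lower at DAM 2000 mg/kg, with a median of −0.13. That share stands beside 6.11% of all probe sets. Pdgfrb gave 137, 141 and 131 in DAM 2000 livers, against 224, 259 and 235 in DAM 0 livers, and fell by 0.75 ± 0.18 (adjusted p = 0.0164), a call lost without DAM 0 replicate 2 (adjusted p = 0.0578). Of 16 tested, the difference between the effects of the highest doses passed as lower for 5, Vipr1, Colec11, Lhx2, Angptl6 and Reln. It passed as higher for Rgs5, against 2.77% lower and 2.14% higher over all probe sets. Without PBO 1500 replicate 3 it was 2 lower, Vipr1 and Colec11, and 2 higher (adjusted p = 0.000446 for Vipr1, and 0.00254 for Colec11 with a difference of −0.71). The differences of Lhx2, Angptl6, Reln and Rgs5 were each lost without several single arrays, and passed in 4, 3, 2 and 6 of 12 such fits.

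**Figure D3:**
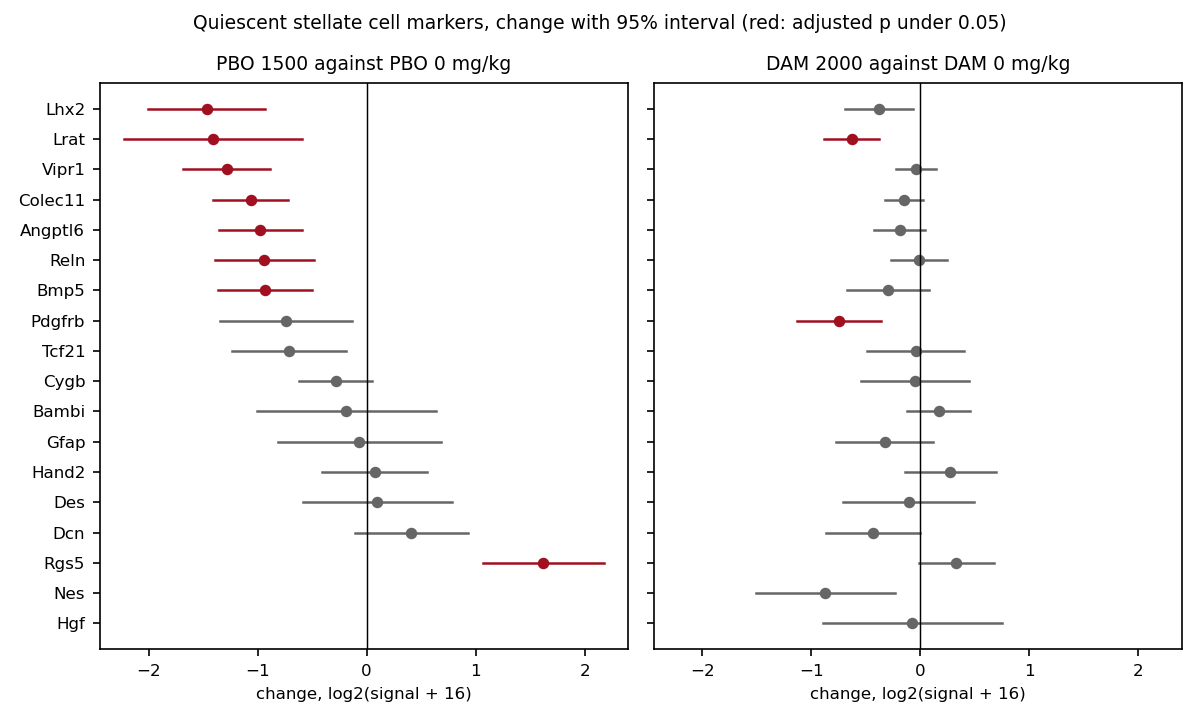
Change on the log2(signal + 16) scale with its 95% interval of the quiescent stellate cell markers tested, at PBO 1500 against PBO 0 mg/kg and at DAM 2000 against DAM 0 mg/kg (limma, n = 3 per group; red, adjusted p under 0.05). Lhx2, Lrat, Vipr1, Colec11, Angptl6, Reln and Bmp5 are lower and Rgs5 higher on the PBO side, where Nes and Hgf were below the filter.

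Markers of other liver cells moved beside this list. Over all probe sets 9.26% were lower at PBO 1500 mg/kg and 6.11% at DAM 2000 mg/kg. Summed over 19 of 22 genes, the quiescent markers gave 8605, 7176 and 5655 in PBO 1500 livers, against 12931, 12022 and 11147 in PBO 0 livers. The summed macrophage markers, 10 of 13 genes, gave 22466, 16136 and 5118 in PBO 1500 livers, against 26208 to 29685 in PBO 0 livers. Here 3 of 10 were lower, Clec4f, C1qa and C1qb, whose changes of −1.61, −1.88 and −1.33 were −1.02, −1.09 and −0.72 without PBO 1500 replicate 3. The Clec4f call was lost without PBO 0 replicate 1, and those of C1qa and C1qb without any 1 of the PBO 0 replicates. Sinusoidal endothelial markers, 11 of 14 genes, gave 11385 to 13696 in PBO 1500 livers, against 15674 to 17045 in PBO 0 livers, and 2 of 11 tested were lower. Cholangiocyte markers, 5 of 8 genes, gave 3546 to 4324, against 1160 to 1499. Most of that sum was 1 gene, Epcam, an epithelial adhesion molecule, which gave 3803, 3038 and 3696 in PBO 1500 livers, against 840, 786 and 846 in PBO 0 livers. Epcam was the only 1 of 4 cholangiocyte markers tested that passed at PBO 1500 mg/kg, where it rose by 2.06 ± 0.13 (adjusted p = 7.79e-07). Of the 4 changes, 1 was negative at PBO 1500, 3 at PBO 1000 and 0 at PBO 500 mg/kg, with medians of 0.42, −0.36 and 0.47. Erythroid markers, 4 of 5 genes, gave 4375 to 10036, against 21717 to 23029, with 3 of 4 lower, and T and NK cell markers, 8 of 8 genes, gave 327 to 559, against 818 to 1105, with 2 of 4 tested lower. In DAM 2000 livers the macrophage sum was 20957 to 24632, with 2 of its genes lower, Cd68 and Mpeg1, against 28195 to 28687 in DAM 0 livers. The cholangiocyte sum was 1639.9 to 1795, against 708 to 949.7, and Epcam was the 1 of 2 tested that passed. Hepatocyte markers, 9 of 10 genes, summed to 230369 to 274636 in PBO 1500 livers, against 259252 to 325199 in PBO 0 livers. Of these 9 genes 4 were lower, Cps1, Hnf4a, Fgb and Asgr1, with changes of −0.78, −0.59, −0.63 and −0.31 and a median of −0.30 over the list. The Asgr1 call held in 1 of the 6 fits without 1 array, and that of Fgb was lost without PBO 0 replicate 3. At DAM 2000 mg/kg Tat and Hnf4a were lower and Apoa1 higher, with a hepatocyte sum of 213301 to 252119, against 198722 to 244629 in DAM 0 livers. No marker was at 0 in any group, but no array held a signal of 0, so this does not show that each marker was detected. The part of these cell types in the results was not tested.

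**Figure D4:**
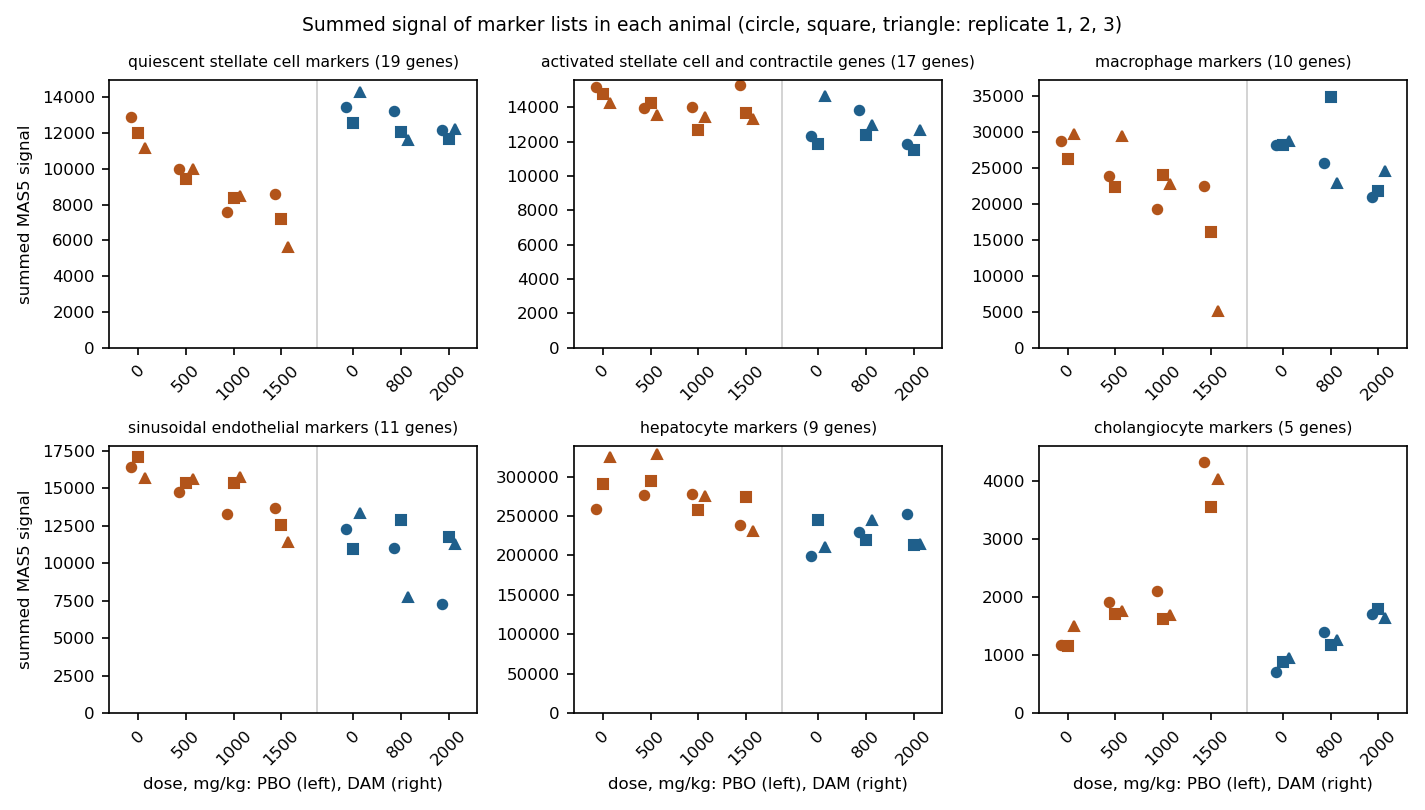
Summed MAS5 signal of 6 marker lists in each liver (linear axis from 0), by dose in mg/kg, with PBO groups left of the line and DAM groups right of it; circle, square and triangle are replicates 1, 2 and 3. The quiescent stellate cell sum of the PBO 1500 livers is 5655 to 8605 and the macrophage sum of PBO 1500 replicate 3 is 5118.

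Genes of activated stellate cells and contraction did not share one direction at PBO 1500 mg/kg. There 3 of 15 were lower and 1 higher, against 9.26% and 8.08% of all probe sets. The median change was 0.10, and 0.21 with median scaling, under which none was lower and 1 higher. Cald1, an actin-binding protein, fell by 0.42 ± 0.09 (adjusted p = 0.00896), and the tropomyosin gene Tpm1 rose by 0.66 ± 0.18 (adjusted p = 0.0262, and 0.0615 without PBO 1500 replicate 3), a call also lost without PBO 0 replicate 3. Synpo2 and Myl9, with changes of −1.42 and −0.70, also passed, but not without PBO 1500 replicate 3 (adjusted p = 0.121 for each), nor without PBO 0 replicate 1 or 3. Synpo2 was also lost without PBO 0 replicate 2, and Myl9 without PBO 1500 replicate 2. Tpm1 was the 1 of 14 that passed at DAM 2000 mg/kg, where it rose by 0.30 ± 0.09 (adjusted p = 0.0452), a call that held in 1 of the 6 fits without 1 array. The other 13 changes there were negative, with a median of −0.28 over the list, against −0.04 over all probe sets.

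Small leucine-rich proteoglycans, which bind collagen fibrils as decorin does, were lower for 3 of 6 genes at PBO 1500 mg/kg. Of all probe sets 9.26% were lower there. Bgn, encoding biglycan, gave 900.2, 734 and 418 in PBO 1500 livers, against 1705, 1247 and 1421 in PBO 0 livers, and fell by 1.13 ± 0.24 (adjusted p = 0.00576). Omd and Ogn, encoding osteomodulin and osteoglycin, fell by 1.14 ± 0.22 and 1.08 ± 0.26 (adjusted p = 0.00344 and 0.0136), and Ogn did not pass without PBO 0 replicate 1 or 2. None passed at DAM 2000 mg/kg, 0 of 8, but 7 of the 8 changes were negative. The median change there was −0.44, against −0.04 over all probe sets. Bgn gave 1287, 1692 and 1555 in DAM 2000 livers, against 1576, 1211 and 1513 in DAM 0 livers. The 2 effects on Bgn differed by −1.21 ± 0.29 (adjusted p = 0.0201), a call lost without PBO 0 replicate 1, DAM 2000 replicate 2 or DAM 0 replicate 2. Dcn, the member of this list described above, was not among the genes that fell.

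Among the other collagens and the proteins that process them, the calls were few. Over all probe sets 17.3% were called at PBO 1500 mg/kg and 12.3% at DAM 2000 mg/kg. Col5a1, a minor fibrillar chain, fell by 1.05 ± 0.27 at PBO 1500 mg/kg (adjusted p = 0.0170), so that 2 of 8 fibrillar collagen genes were lower. Its partner Col5a2 fell by 0.49 ± 0.12 at DAM 2000 mg/kg (adjusted p = 0.0154), and 2 of 6 were lower. The Col5a1 call was lost without PBO 0 replicate 1 or 2, and that of Col5a2 without DAM 2000 replicate 1 or DAM 0 replicate 1 or 3. Of the other collagens 1 of 10 and 1 of 8 were lower at the highest doses, Col6a1 in both, by 0.87 ± 0.27 and 0.34 ± 0.10 (adjusted p = 0.0413 and 0.0388), and each Col6a1 call held in 1 of the 6 fits without 1 array. The basement membrane chain Col4a5 rose by 1.51 ± 0.21 at PBO 1500 mg/kg (adjusted p = 0.000470), while Col18a1 and Nid2, of the same list, fell by 0.77 and 0.96 (adjusted p = 0.00213 and 0.00491). Of 14 collagen processing and crosslinking genes 1 was lower, Lox, and 1 higher, Plod1, a lysyl hydroxylase, which rose by 0.40 ± 0.11 (adjusted p = 0.0279), a call lost without PBO 1500 replicate 1 or PBO 0 replicate 2 or 3. The lysyl oxidase relative Loxl2 was the 1 of 15 lower at DAM 2000 mg/kg, with a change of −0.75 ± 0.21 (adjusted p = 0.0329), a call that held in 1 of the 6 fits without 1 array.

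Matrix glycoproteins were lower for 4 of 20 genes at PBO 1500 mg/kg and for 2 of 19 at DAM 2000 mg/kg, with none higher. Over all probe sets 9.26% and 6.11% were lower. Fn1, encoding fibronectin, which hepatocytes also secrete, fell by 1.02 ± 0.13 and 0.29 ± 0.08 (adjusted p = 0.000206 and 0.0351), and the DAM call held in 1 of the 6 fits without 1 array. Ecm1 fell by 1.11 ± 0.12 at PBO 1500 mg/kg (adjusted p = 5.94e-05). Mgp, encoding matrix Gla protein, an inhibitor of calcification, fell by 0.67 ± 0.09 at DAM 2000 mg/kg (adjusted p = 0.000471). Of 19 matrix proteases and inhibitors 3 were lower at PBO 1500 mg/kg, the protease inhibitor A2m by 2.82 ± 0.41 (adjusted p = 0.000561), the gelatinase Mmp2 by 0.94 ± 0.25 (adjusted p = 0.0196) and the urokinase gene Plau by 0.85 ± 0.26 (adjusted p = 0.0414). The Mmp2 call was lost without PBO 0 replicate 2 or 3, and the Plau call held in 1 of the 6 fits without 1 array. Of 16 tested at DAM 2000 mg/kg, A2m fell by 0.92 ± 0.22 (adjusted p = 0.0158), a call lost without DAM 2000 replicate 2 or DAM 0 replicate 3, and Mmp15, a membrane-type matrix metalloproteinase, rose by 0.59 ± 0.12 (adjusted p = 0.00587). The effects of the highest doses on Mmp15 differed by −0.99 ± 0.20 (adjusted p = 0.00841), and those on A2m by −1.90 ± 0.51 (adjusted p = 0.0371), a difference that passed in 5 of 12 fits without 1 array. Of 6 portal fibroblast markers 1 was lower at each highest dose, Dpt, encoding dermatopontin, by 0.89 ± 0.23 and 0.32 ± 0.07 (adjusted p = 0.0206 and 0.0112). Its PBO call was lost without PBO 0 replicate 2 or 3.

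The signalling list covers the ligands, receptors and inhibitors of the TGF-beta and PDGF pathways. Of its genes, 5 of 20 were lower at PBO 1500 mg/kg and 4 of 20 at DAM 2000 mg/kg, with none higher. Over all probe sets 9.26% and 6.11% were lower. Inhba, encoding an activin subunit, fell by 2.93 ± 0.54 and 0.74 ± 0.12 (adjusted p = 0.00275 and 0.00159). The receptor genes Pdgfra and Tgfbr1 fell by 1.30 ± 0.22 and 0.65 ± 0.15 at PBO 1500 mg/kg (adjusted p = 0.00162 and 0.00879), and the inhibitory Smad7 by 1.00 ± 0.25 (adjusted p = 0.0159, lost without PBO 0 replicate 2). Under dammar resin at 2000 mg/kg Smad3, which carries the TGF-beta signal, fell by 0.81 ± 0.17 (adjusted p = 0.00717), and Skil, a repressor of it, by 0.73 ± 0.15 (adjusted p = 0.00797).

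The retinoid handling list moved in both directions. At PBO 1500 mg/kg 3 of 23 genes were higher and 3 lower, and at DAM 2000 mg/kg 3 of 21 were higher and 2 lower. Of all probe sets 8.08% were higher and 9.26% lower at PBO 1500 mg/kg, and 6.22% and 6.11% at DAM 2000 mg/kg. Aldh1a1, which oxidises retinaldehyde and other aldehydes, rose by 3.76 ± 0.16 and 3.44 ± 0.20 (adjusted p = 2.71e-08 and 7.23e-07). The retinoic acid hydroxylase gene Cyp26a1 rose by 1.14 ± 0.31 and 1.12 ± 0.20 (adjusted p = 0.0251 and 0.00310), and its PBO call did not pass without PBO 1500 replicate 3 (adjusted p = 0.0502), PBO 1500 replicate 2, or PBO 0 replicate 1 or 3. Lrat fell in both, and Pnpla3, a lipase that can release retinol from its esters in human stellate cells, fell by 2.28 ± 0.46 at DAM 2000 mg/kg (adjusted p = 0.00632).

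**Figure D5:**
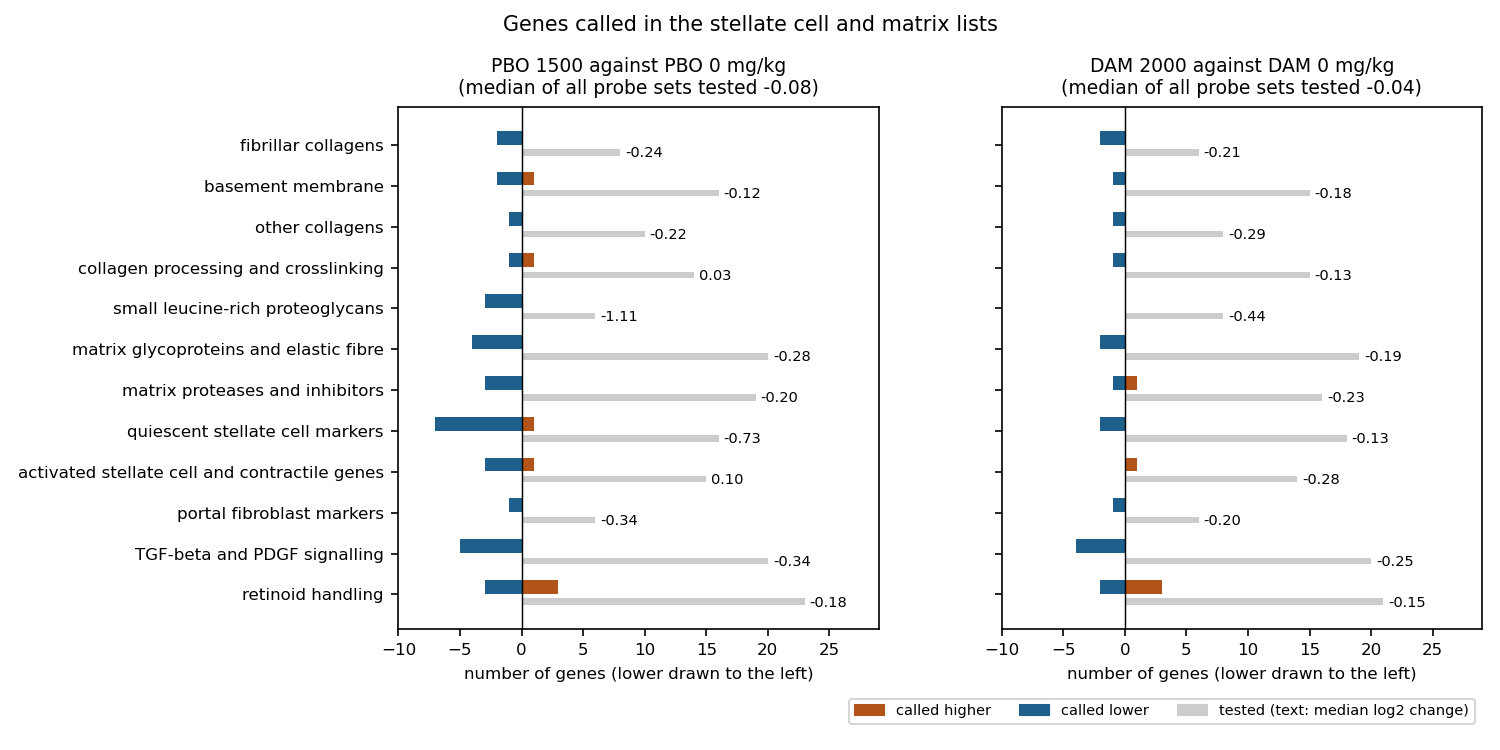
Number of genes called higher (orange, to the right) and lower (blue, to the left) in 12 lists of stellate cell and matrix genes, with the number tested (grey) and the median change on the log2(signal + 16) scale printed beside it, at PBO 1500 against PBO 0 mg/kg and DAM 2000 against DAM 0 mg/kg. Members are counted in their lists; the quiescent stellate cell markers hold 7 genes lower on the PBO side and 2 on the DAM side.

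Genes with the most similar pattern were sought over the 21 arrays, each gene centred on the undosed group of its study, by the root mean square of the differences over arrays among 13450 probe sets. For Lox the closest were Popdc2, Adora2b, Slc22a8, Slc6a6 and Slpi, at 0.98 to 1.39, against a median of 2.38 over all. At PBO 500, 1000 and 1500 mg/kg Popdc2 lay at −1.39, −2.29 and −3.15. At DAM 2000 mg/kg these genes lay, in the order named, at −0.17, −0.50, −1.99, −1.91 and −0.89, against −0.10 for Lox. The likeness of several thus did not extend to the DAM study. For Lrat the closest were Stard5, Hnrnph3, Nmnat3, Abcc6 and Coq10a, at 0.20 to 0.24, against a median of 0.76. For Col1a1 1370864_at they were Gramd2b, Ctsf, Ifi44l, Bche and Acsl4, at 0.32 to 0.34, against a median of 0.64.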

How the data were processed

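Livers of 21 rats were profiled on 1-colour Affymetrix arrays. Groups come from the labels, which call the replicates biological. Per the submitters' processing notes the deposited intensity values were made with MAS5 (version not stated there), and the authors gave them as 1 table on a linear scale. They were used as log2(signal + 16) with no further normalization. Of 31099 probe sets 57 were array controls. In the platform annotation 20826 had 1 gene symbol, 436 several and 9780 none, and 20758 symbols were updated through Entrez identifiers. The 18625 probe sets above the 40th percentile of mean signal in a study (58.5 for PBO, 43.2 for DAM) were tested.

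Each study was fitted separately with limma, using lmFit and an intensity trend in eBayes, and both studies together for the difference of effects, 7 comparisons in all. Benjamini-Hochberg adjustment ran over all probe sets of a comparison at a threshold of 0.05. The text names all member probe sets, genes of 19 lists (283 genes, 253 with a probe set) that passed or were among the 4 smallest adjusted p, and the 5 genes most like Lox, Col1a1 and Lrat. In the list counts a gene was represented by its tested probe set with the highest mean log2 signal, and its other probe sets were not counted. Members and lists were chosen with earlier results of these data known. The fits were tested on simulated data. Software was R 4.3.3 with limma 3.58.1, and Python 3.11.15 with matplotlib 3.10.9 for plots. Alternatives were pseudocounts of 1 and 64, no filter or a 60th percentile filter, quantile normalization, median scaling, eBayes without trend, a replicate block, fits of 2 groups alone, and leaving out each array. Arrays give no count-based depth, and 3 per group limit the precision.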

Additional observations from a re-analysis of the deposited data

Results flagged for a closer look

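The effect of PBO 1500 mg/kg on Lox differed from that of DAM 2000 mg/kg in a limma fit over both studies. For probe set 1368171_at the PBO effect minus the DAM effect was −3.73 (adjusted p = 0.00594), with all 3 PBO 1500 livers (64.7 to 213) below all 3 PBO 0 livers (665 to 5914), while DAM 2000 livers (63.3 to 93.3) and DAM 0 livers (68.2 to 117) overlapped. For 1368172_a_at it was −2.28 (adjusted p = 0.0361), but that probe set was below the filter on low signal in the DAM study. Its mean was 593 in PBO 0 livers and 27.8 to 104 in the other groups, and the call was lost with no filter (adjusted p = 0.0569). The undosed Lox levels of the studies did not overlap. The DAM 0 mean of 1368171_at, 85.6, was already below the PBO 1000 and PBO 1500 means, 95.6 and 139. A fall as large as that in the PBO study could thus not show in the DAM study. Compound, strain, route, duration and storage cannot be told apart. Dixon's test was not applied to groups of 3 animals.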

How the results depend on the processing

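Over the members' changes, 1305 of 1355 pairs of result and alternative kept their direction and side of the threshold, 40 lost the call, 10 gained it and 0 reversed. A sign change counted as reversed only where a setting passed the threshold, and 66 among values that never passed were not counted. eBayes without trend gave 45 calls at PBO 500, 300 at PBO 1000, 235 at DAM 800 and 1501 at DAM 2000 mg/kg over all probe sets, with 1 member at DAM 2000 mg/kg. Fits of both groups alone gave 269, 1370 and 1550 calls at PBO 500, 1000 and 1500 mg/kg, with 2 members at PBO 1500 and 1 at DAM 800 mg/kg. The 60th percentile filter gave 1 member at PBO 1000 mg/kg, 1 at DAM 800 mg/kg and 1 in the difference of effects, where pseudocount 1 and no filter also gave 1. Median scaling gave 1 at DAM 2000 mg/kg. It moved the share of higher calls to 84.1% at PBO 500, 80.5% at PBO 1000, 63% at PBO 1500, 73.3% at DAM 800, 73.9% at DAM 2000 mg/kg and 65.7% in the trend, against 73%, 60.4%, 46.6%, 57.2%, 50.4% and 47.2%. Leaving out single arrays gave 52 to 371 calls at PBO 500 mg/kg (0 to 2 members), 255 to 1448 at PBO 1000, 2032 to 3321 at PBO 1500 (2 to 5), 382 to 575 at DAM 800, 1492 to 1882 at DAM 2000 (1 to 3), and 502 to 1425 in the difference (1 to 3), with 1 to 4 members in the trend. The highest counts at PBO 500 and 1000 mg/kg came without PBO 1500 replicate 3. In the difference, the 1425 came without PBO 1500 replicate 2 and the 502 without DAM 2000 replicate 1. For PBO 1500 mg/kg there were 2134 and 2032 calls without PBO 0 replicates 1 and 3. The cause of these shifts was not tested. Replicate numbers gave no clear pairing of the animals. Deviations from the group means correlated at −0.072 to 0.034 between same-numbered PBO animals and −0.062 to 0.104 between same-numbered DAM animals. Between differently numbered animals the values were −0.053 to 0.051 and −0.066 to 0.075. With the replicate block Col3a1 at PBO 1500 mg/kg had an adjusted p of 0.0512. Low signals limit the precision of Lox and of Col1a1 1388116_at in the DAM study.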
